A study of Homo sapiens with 8 samples.

Results

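Of the 70312 peaks of open chromatin in Raji cells, 15974 (22.7%) lay outside annotated genes and less than 50 kb from the nearest transcription start site (TSS). They were chosen by the annotation columns of the authors' deposited table. The rule took peaks annotated as intergenic with an absolute distance to the nearest TSS under 50000 bp. No measured value entered the rule, but it was set with earlier results of these data known. These peaks made up 61.7% of the 25883 intergenic peaks, and the other 9909 lay 50 kb or more away. Raji is a human B cell line derived from a Burkitt lymphoma. Wild-type Raji cells were compared with RGS-SE knockout cells, made with CRISPR/Cas9 and 2 guide plasmids aimed at a super-enhancer next to the signalling regulators RGS1 and RGS13 (chr1:192515157-192741754, hg38). Each genotype had 2 ATAC-seq and 2 RNA-seq libraries, labelled as biological replicates, and an ATAC-seq library was made from about 50000 cells. The knockout cells came from single clones grown after electroporation and puromycin selection. The number of clones is not given, nor whether the wild-type cells went through the same steps, so genotype, clone and handling cannot be told apart.

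ATAC-seq uses the Tn5 transposase to cut DNA that is not wrapped in nucleosomes, and the density of cuts marks promoters, enhancers and binding sites of the insulator protein CTCF. Open sites between genes are often enhancers, which bind cell-type-specific transcription factors and can raise transcription of a gene over a distance. In B cells such sites hold motifs of PU.1, EBF1, E2A, OCT2, RUNX, IRF, NF-kB and AP-1 family proteins. The set of open enhancers changes as a germinal centre B cell becomes a memory or plasma cell.

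The authors' deposited tables give, per peak or gene, a mean count over the 4 libraries of an assay after DESeq2 size factors, a log2 fold change with its standard error (SE) and an adjusted p. No library's own value was used here, and replicate spread is therefore seen only in the SE. A peak or gene is called changed where the Benjamini-Hochberg adjusted p of the authors' DESeq2 Wald test was under 0.05. The fold changes carry no named direction, and positive is read as higher in the knockout because the peak described next, in the targeted interval, is near absent on one side. With the opposite coding all directions below would turn. Counts for each genotype are called fitted, since they were computed from the deposited mean and fold change. In the RNA table the 7 B cell markers lay between 114.5 and 1052 CPM, the share of the table's summed mean. Of 14 T and NK cell markers 5 were in the table, the highest being LCK at 4.71, and the highest myeloid marker was ITGAM at 1.17. Of 9 epithelial, fibroblast and erythroid markers 3 were in the table, the highest being COL1A1 at 6.19. Their summed level was 3.99 CPM in the wild type and 8.60 in the knockout, with 1 called higher, and its part in the results was not tested.

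The sequences below are the central 200 bases of the peaks that the results turn on, read from hg38 on the plus strand. Capitals mark matches to any of 12 short motifs on either strand, and matches can overlap. The motifs were AP-1 (TGANTCA), NF-kB (GGANNNTCC), ETS-IRF composite (GGAANNGAA), interferon response (GAAANNGAA), PU.1 (GAGGAAGT), octamer (ATGCAAAT), RUNX (TGTGGTT), EBF (TCCCNNGGG), E2A E-box (CAGCTG), MYC E-box (CACGTG), CTCF core (AGGNGGC) and GC box (GGGCGG), where N is any base. The first window is the near-absent peak of the targeted interval, the next 5 are of peaks higher in the knockout and the last 3 of peaks lower in it. A match is a description of the letters and not a binding site, and a window with no capitals holds none of these 12 patterns.
RGS13 upstream (chr1:192609370-192609569): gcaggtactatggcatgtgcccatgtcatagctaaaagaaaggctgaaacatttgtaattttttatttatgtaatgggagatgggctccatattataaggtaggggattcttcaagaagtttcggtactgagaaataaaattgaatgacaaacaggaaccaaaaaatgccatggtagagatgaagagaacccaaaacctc
CCR7 upstream (chr17:40582401-40582600): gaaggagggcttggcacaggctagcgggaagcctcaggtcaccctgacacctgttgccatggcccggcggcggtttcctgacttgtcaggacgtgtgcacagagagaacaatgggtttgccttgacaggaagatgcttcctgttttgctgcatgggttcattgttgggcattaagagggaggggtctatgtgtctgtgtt
NLRC3 upstream (chr16:3578970-3579169): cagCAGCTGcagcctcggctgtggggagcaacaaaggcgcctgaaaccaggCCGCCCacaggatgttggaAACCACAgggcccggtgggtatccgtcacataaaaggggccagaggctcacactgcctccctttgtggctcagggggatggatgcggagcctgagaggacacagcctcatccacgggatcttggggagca
TENT5C downstream (chr1:117654583-117654782): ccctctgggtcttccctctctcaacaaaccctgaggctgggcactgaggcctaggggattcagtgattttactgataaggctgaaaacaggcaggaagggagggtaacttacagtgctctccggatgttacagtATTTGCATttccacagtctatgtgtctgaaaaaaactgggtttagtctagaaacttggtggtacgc
PRDM1 downstream (chr6:106141798-106141997): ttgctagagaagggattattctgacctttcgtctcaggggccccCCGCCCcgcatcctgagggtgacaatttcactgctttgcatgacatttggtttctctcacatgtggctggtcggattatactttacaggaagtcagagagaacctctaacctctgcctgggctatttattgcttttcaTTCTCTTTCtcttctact
ARHGAP25 upstream (chr2:68727074-68727273): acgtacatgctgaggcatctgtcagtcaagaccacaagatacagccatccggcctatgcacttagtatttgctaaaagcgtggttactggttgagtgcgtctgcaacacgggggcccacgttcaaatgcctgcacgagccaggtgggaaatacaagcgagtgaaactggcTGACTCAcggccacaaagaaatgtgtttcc
EZH2 upstream (chr7:148903621-148903820): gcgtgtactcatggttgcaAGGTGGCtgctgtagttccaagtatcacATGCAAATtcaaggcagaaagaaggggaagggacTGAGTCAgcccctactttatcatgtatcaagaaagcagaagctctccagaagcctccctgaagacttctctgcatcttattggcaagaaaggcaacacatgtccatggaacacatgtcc
LINC00664 upstream (chr19:21463785-21463984): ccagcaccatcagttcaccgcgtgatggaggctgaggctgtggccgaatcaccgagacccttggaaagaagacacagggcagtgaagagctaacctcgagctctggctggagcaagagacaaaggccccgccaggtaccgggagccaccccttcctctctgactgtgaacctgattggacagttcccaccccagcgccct
ROR1 upstream (chr1:63772869-63773068): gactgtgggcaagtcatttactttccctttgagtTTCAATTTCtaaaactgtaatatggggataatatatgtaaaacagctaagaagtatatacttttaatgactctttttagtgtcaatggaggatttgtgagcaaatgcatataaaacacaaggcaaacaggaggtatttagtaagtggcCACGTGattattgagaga

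The intergenic peak chr1:192609102-192609836 was the one most reduced in the knockout. It lies 26.7 kb upstream of the RGS13 start, inside an MLT1N2 element, an old long terminal repeat. Its fitted counts were 622 in wild-type cells and 0.186 in knockout cells. The authors' deposited table gives a log2 fold change of -11.71 ± 1.45, adjusted p = 2.16e-14. A knockout count this close to 0 makes the size of the fold change depend on the model, so it is no bound. The next lowest member in the whole set, near LINC00664, stood at -5.86. The near-absent peak also covers the start of a plus-strand long noncoding RNA in GENCODE, ENSG00000289995 (chr1:192609359-192634544), whose deposited RNA change was -6.72 ± 2.28 (adjusted p = 0.0211), from a fitted 18.1 to 0.172 counts.

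The targeted interval held 18 peaks, 14 of them intergenic and within 50 kb of a TSS. Of these 14, 3 were higher, 3 lower and 8 not called. The summed fitted count of the other 13 members in the knockout was 91.5% of that in the wild type, and their log2 fold changes ran from -0.97 to 1.14. Upstream of RGS1, a negative regulator of G protein signalling, 3 members were higher in the authors' deposited table. The member 30.5 kb upstream had fitted counts of 110.0 in the wild type and 242 in the knockout (1.14 ± 0.20, adjusted p = 1.57e-07), and the member 22.8 kb upstream had 86.9 in the wild type and 187 in the knockout (1.11 ± 0.23, adjusted p = 1.44e-05). The member 24.6 kb upstream changed less, by 0.42 ± 0.15, adjusted p = 0.0200. On the RGS13 side, the member 9.34 kb upstream of its start was lower, at 1061 in the wild type and 593 in the knockout (-0.84 ± 0.091, adjusted p = 1.76e-18), and the member 29.5 kb downstream of the RGS1 start was lower (-0.97 ± 0.25, adjusted p = 5.14e-04). In the authors' deposited RNA table, RGS1 rose (3.49 ± 0.18, adjusted p = 7.54e-79), and RGS13, also a negative regulator of G protein signalling, stood at -0.20 ± 0.22, adjusted p = 0.628.

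**Figure D1:**
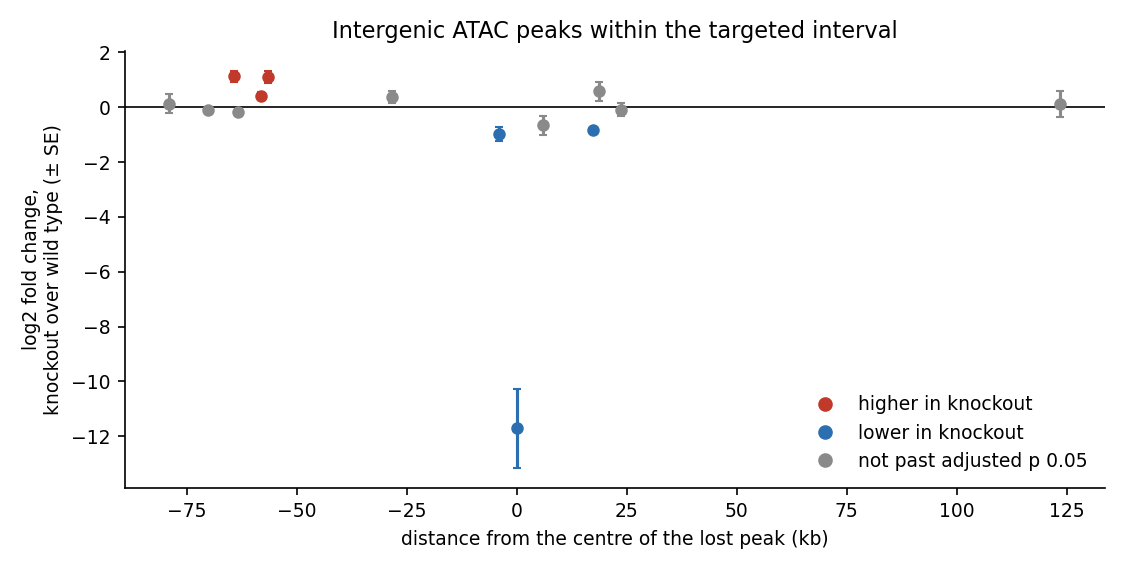
Log2 fold change of each of the 14 intergenic peaks in the targeted interval (y axis, knockout over wild type; bars are the deposited SE) against the distance of its centre from the centre of the near-absent peak (x axis, kb). One peak lies at -11.71 and the other 13 between -0.97 and 1.14.

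Over the whole genome, 5572 of the 15974 members (34.9%) were called, 3362 higher and 2210 lower in the knockout. Among all 70312 peaks tested 35.9% were called, 20.4% as higher and 15.5% as lower, and among the 54338 other peaks 36.2%. The members' called share is thus near the background, and the direction leaned slightly more to higher, with 60.3% of called members higher against 55.8% of the called peaks outside the set. That outside share pools unlike classes, from 41.6% at promoters to 65.0% in intergenic peaks 50 kb or more from a TSS. First introns stood at 58.7% and later introns at 55.9%. The median log2 fold change was 1.07 for the higher members and -0.86 for the lower ones, and 51.5% of called members changed by less than 1 log2 unit. By at least 1 log2 unit 1828 rose and 876 fell, where 16.8% of all peaks were called at that size in either direction. The count of calls depends on how the spread is set. Against a null of a 1.5-fold change 1376 members were called, and 486 when the Wald statistics were divided by their robust SD of 2.46.

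Their median mean count was 99.0, their median width 716 bp (range 151 to 3246) and their median distance from the TSS 16129 bp, with 11366 upstream of the nearest gene's start and 4608 downstream. The nearest genes numbered 8771 names, and 72.8% of the members were nearest a protein-coding gene. The closest member lay 1001 bp from a TSS. At the outer limit, the last member inside, 49992 bp from the DSG1 start, had a log2 fold change of 1.82 (adjusted p = 3.16e-08), and the first intergenic peak outside, 50004 bp from LINC02655, had 0.12 (adjusted p = 0.745), both in the authors' deposited table. Between 49 and 50 kb 41.3% of 143 members were called, and between 50 and 51 kb 35.8% of 123 intergenic peaks.

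The called share rose a little with distance. It was 34.1% under 5 kb, 33.9% from 5 to 10 kb, 34.5% from 10 to 20 kb, 34.8% from 20 to 30 kb, 35.9% from 30 to 40 kb and 37.6% from 40 to 50 kb. Peaks farther out were weaker: the median mean count fell from 136 under 5 kb to 84.1 at 40 to 50 kb. Among the members with a mean of at least 100, whose precision is better, the share ran from 37.2% under 5 kb to 44.3% at 40 to 50 kb. Upstream of the nearest start 3980 of 11366 members were called and downstream 1592 of 4608.

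Beside other classes, the members stood between promoters and remote intergenic peaks. Intergenic peaks 50 kb or more from a TSS were called in 39.8% of cases and 65.0% of those calls were higher. Promoter peaks were called in 34.2% and 41.6% of their calls were higher. First intron peaks were called in 37.4% and later intron peaks in 35.6%, with 58.7% and 55.9% of those calls higher. The order changed with peak strength. Below a mean of 50, 28.4% of members were called against 33.7% of remote intergenic and 40.8% of promoter peaks. At 500 or more the values were 48.2% for members, 55.7% for remote intergenic and 33.1% for promoter peaks. Members at 500 or more were called lower in 344 and higher in 294 cases.

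The 8 largest increases among called members at or above the members' median mean all had low fitted counts in the wild type, at most 21.1. The peak 7.64 kb upstream of ARHGAP25, a GTPase-activating protein of blood cells, had fitted counts of 9.31 in the wild type and 243 in the knockout (4.71 ± 0.39, adjusted p = 3.96e-31 in the authors' deposited table), yet its RNA stood at 0.11 ± 0.18, adjusted p = 0.765. The peak 1.67 kb upstream of NLRC3, an inhibitor of inflammatory signalling, had 21.1 in the wild type and 299.8 in the knockout (3.83 ± 0.29, adjusted p = 6.11e-38). NLRC3 RNA rose from a fitted 9.08 to 523 counts, with a deposited log2 change of 5.85 ± 0.50, adjusted p = 4.97e-29. Near PMEPA1, an inhibitor of TGF-beta signalling, a peak in a CpG island 7.23 kb upstream rose by 4.20 ± 0.35, adjusted p = 1.25e-31, with RNA at 5.04 ± 1.47, adjusted p = 0.00558 in the authors' deposited tables. The peak 15.1 kb upstream of B3GNT2, which builds sugar chains, rose by 4.20 ± 0.37 and B3GNT2 RNA by 1.04 ± 0.19, adjusted p = 1.68e-06. Peaks near ZNF709 (4.50), TSPAN3 (4.82) and MIR5007 (5.25) were of the same size. The eighth, near PNOC on chromosome 8, stood at 5.46.

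Of the 8 largest decreases, which include the near-absent peak of the targeted interval, 3 lay in CpG islands. The peak 19.8 kb upstream of LINC00664 fell from a fitted 261.6 to 4.52 counts (-5.86 ± 0.52, adjusted p = 2.50e-27 in the authors' deposited table). It covers the start of ENSG00000268119, a long noncoding RNA on which more is given with the GENCODE starts. The peak 23.8 kb upstream of TUSC1 had 252 in the wild type and 11.0 in the knockout, in a stretch of chromosome 9 where most members were lower. CpG island peaks fell near BCORL1 (-4.04) and LINC01058 (-3.26), and peaks outside islands near KCNE5 (-3.16) and LOC105369747 (-3.07). A CpG island peak near LOC101929268 on chromosome 8 fell by 5.33 on the log2 scale. Of the nearest genes of these 8 peaks, those with an RNA value had an adjusted p above the threshold in the authors' deposited table.

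By the role of the nearest gene, members near plasma cell and antigen presentation genes had more higher than lower calls, and members near germinal centre and RGS genes more lower than higher ones. The lists were written with earlier results of these data known, so their directions are descriptions. Over all members the median log2 fold change was 0.017, and over all peaks -0.011. Among all peaks 35.9% were called, 20.4% as higher and 15.5% as lower. The counts of each list are to be read beside these shares, which already lean to higher. Near 10 plasma cell genes lay 38 members, of which 16 rose and 4 fell (median 0.34). With each peak centred on the median of peaks within 2 Mb the counts were 10 and 4, and 14 of the 38, those of IRF4 and PRDM1, lay in 10-Mb bins where the members' median moved by at least 0.3 log2 units. The peak 48.6 kb downstream of the TENT5C start, which encodes a poly(A) polymerase of plasma cells, had fitted counts of 207 in the wild type and 669.6 in the knockout (1.69 ± 0.13, adjusted p = 5.02e-35). TENT5C RNA changed by 3.75 ± 0.52, adjusted p = 5.71e-11 in the authors' deposited table. All 5 members of PRDM1, which encodes the plasma cell regulator BLIMP1, were higher. The one with the smallest adjusted p, 43.0 kb downstream of its start, had 162 in the wild type and 423 in the knockout (1.38 ± 0.16, adjusted p = 3.27e-17), or 0.75 after local centring, with RNA at 2.29 ± 0.22, adjusted p = 3.41e-22. IRF4, a factor that drives plasma cell differentiation, had 9 members, 4 higher and 2 lower. The member 26.3 kb upstream, in an Alu element, had 505 in the wild type and 1060.1 in the knockout (1.07 ± 0.093, adjusted p = 3.62e-28), and 0.73 after local centring. IRF4 RNA went from a fitted 721 to 9035 counts (3.65 ± 0.16, adjusted p = 1.25e-112 in the authors' deposited table). Among the list's 16 genes tested for RNA, 9 rose and none fell.

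Antigen presentation genes had 43 members near 13 genes, with 17 higher, none lower (median 0.30). After local centring the counts were 12 and 0. A THE1B long terminal repeat 22966 bp downstream of the start of HLA-DRA, which encodes the alpha chain of HLA-DR, had 30.3 in the wild type and 255 in the knockout (3.07 ± 0.26, adjusted p = 1.94e-29 in the authors' deposited table). HLA-DRA RNA changed by 1.57 ± 0.15, adjusted p = 5.53e-24. The peak 20.1 kb upstream of HLA-DOA, a chain of the peptide-loading regulator HLA-DO, rose by 0.64 ± 0.13, adjusted p = 4.06e-06. All 5 members of CIITA, the master activator of MHC class II genes, were higher, with 0.96 ± 0.15, adjusted p = 1.64e-09 for the peak 6.14 kb upstream. That peak stood at -0.11 after local centring (adjusted p = 0.620), which turns its direction. In RNA, 18 of the list's 22 tested genes rose and 2 fell.

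Germinal centre B cell genes had 50 members near 14 genes, with 4 higher, 18 lower (median -0.29), and 6 and 13 after local centring. The peak 29.4 kb upstream of LMO2, a germinal centre transcription cofactor, had 729.7 in the wild type and 448 in the knockout (-0.70 ± 0.11, adjusted p = 9.27e-10 in the authors' deposited table). LMO2 had 7 members, 5 of them lower and none higher, and its RNA fell (-2.09 ± 0.42, adjusted p = 1.53e-05). The peak 19.4 kb upstream of EZH2, the methyltransferase that silences plasma cell genes in the germinal centre, had 366 in the wild type and 159.6 in the knockout (-1.20 ± 0.17, adjusted p = 1.87e-11), while EZH2 RNA stood at 0.16 ± 0.15, adjusted p = 0.570. In RNA, 2 of the list's 23 tested genes rose and 7 fell. RGS genes had 26 members near 10 genes, 3 higher and 9 lower, and this count includes the targeted interval. The peak 6.97 kb downstream of the RGS16 start was lower (-0.71 ± 0.16, adjusted p = 3.93e-05), as was RGS16 RNA (-0.74 ± 0.20, adjusted p = 0.00267). Of the 12 RGS genes tested in RNA, 1 rose and 5 fell.

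Core B cell transcription factors had 62 members, 9 higher and 10 lower (30.6% called), so the list held no common direction. Near IKZF1, which encodes IKAROS, a peak 35.4 kb upstream was lower (-0.71 ± 0.10, adjusted p = 5.55e-12 in the authors' deposited table), as was IKZF1 RNA (-0.47 ± 0.15, adjusted p = 0.00951). IRF8, a factor of germinal centre B cells, had 4 lower members of 5, with -1.11 ± 0.19, adjusted p = 3.38e-08 for the peak 4.74 kb upstream and -0.55 after local centring, and its RNA fell (-0.84 ± 0.15, adjusted p = 5.28e-07). TCF3, which encodes E2A, had 6 members, 1 higher and 2 lower. The higher one stood at 1.74 ± 0.25, adjusted p = 1.70e-10, and TCF3 RNA at -0.32 ± 0.16, adjusted p = 0.165. B cell receptor signalling genes had 55 members, 13 higher and 17 lower, or 7 and 15 after local centring. PLCG2, a phospholipase downstream of the receptor, had 6 lower members of 9 and 1 higher, with -1.05 ± 0.09, adjusted p = 6.12e-29 for the member 40.1 kb upstream and RNA at -0.67 ± 0.15, adjusted p = 8.68e-05. The member 8.01 kb upstream of PLCG2 was the higher one, at 0.63 ± 0.23, adjusted p = 0.0197. The peak near BLK, a kinase of B cell receptor signalling on chromosome 8, went from 0.63 to -0.16 with local centring.

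NF-kB, CD40 and LMP1 target genes had 61 members, 12 higher and 5 lower (median -0.05), which is below the all-peak share of calls, although 17 of the list's 29 tested genes rose in RNA and none fell. The peak 18.9 kb upstream of CCL22, a chemokine that attracts T cells, had 279 in the wild type and 524 in the knockout (0.91 ± 0.13, adjusted p = 1.01e-10 in the authors' deposited table) beside an RNA change of 3.24 ± 0.17, adjusted p = 6.55e-81. The peak 11.6 kb upstream of NFKBIA, the NF-kB inhibitor, rose by 1.09 ± 0.19, adjusted p = 1.04e-07 and its RNA by 1.41 ± 0.16, adjusted p = 7.47e-16. Near TNFAIP3, which limits NF-kB signalling, the peak 47.0 kb upstream stood at 0.97 ± 0.16, adjusted p = 5.99e-08, and at 0.37 after local centring, where its adjusted p was 0.0762. Chemoattractant and positioning receptors had 40 members, 13 higher and 6 lower, or 10 and 8 after local centring. The peak 17.0 kb upstream of CCR7, the receptor that guides B cells to the T zone, had 42.8 in the wild type and 327 in the knockout (2.93 ± 0.23, adjusted p = 2.44e-35). CCR7 RNA changed by 2.92 ± 0.18, adjusted p = 5.00e-56 in the authors' deposited table, while 6 of the gene's 8 members were not called. The peak 34.8 kb downstream of the start of P2RY10, a lysophospholipid receptor, rose by 1.46 ± 0.27, adjusted p = 4.76e-07 and its RNA by 1.18 ± 0.18, adjusted p = 2.17e-09. CCR6, a chemokine receptor, had a strong peak 16.9 kb upstream at 0.69, or 0.14 after local centring, where it was no longer called.

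Cytokines and their receptors had 39 members, 7 higher and 6 lower, a called share of 33.3% against 35.9% of all peaks. The peak 11.3 kb upstream of TNFRSF8, the activation marker CD30, had 109 in the wild type and 393 in the knockout (1.85 ± 0.18, adjusted p = 2.30e-23 in the authors' deposited table). TNFRSF8 RNA did not pass the threshold (3.49 ± 1.53, adjusted p = 0.0951). Peaks near the interleukin receptors IL7R and IL4R stood at 1.00 ± 0.13 and -1.05 ± 0.19, and IL4R RNA at -0.94 ± 0.19, adjusted p = 1.88e-05. Survival and death genes had 33 members, 3 higher and 5 lower (24.2% called), with 0.63 near BBC3, 1.17 near XIAP and -0.998 near BCL2A1. Adhesion and motility genes had 37 members, 6 higher and 3 lower (24.3% called), including 2.22 near the integrin ITGB1 and -0.35 near the actin gene ACTB. T and NK cell markers had 28 members, 5 higher and 5 lower. The peak near CD28, a T cell costimulatory receptor, rose by 0.63 ± 0.10, adjusted p = 4.85e-09 and its RNA by 3.70 ± 0.75, adjusted p = 1.75e-05. Peaks near CD2 and GZMB stood at -1.36 ± 0.19, adjusted p = 3.47e-11 and 1.61 ± 0.31, adjusted p = 1.50e-06. GZMB had 6 members, 1 higher and 1 lower. Of the T and NK list's 5 genes tested for RNA, 1 rose and 2 fell. Myeloid markers had 17 members, 1 higher and 5 lower, and the 12 near epithelial, fibroblast or erythroid markers split into 2 higher and 4 lower.

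**Figure D2:**
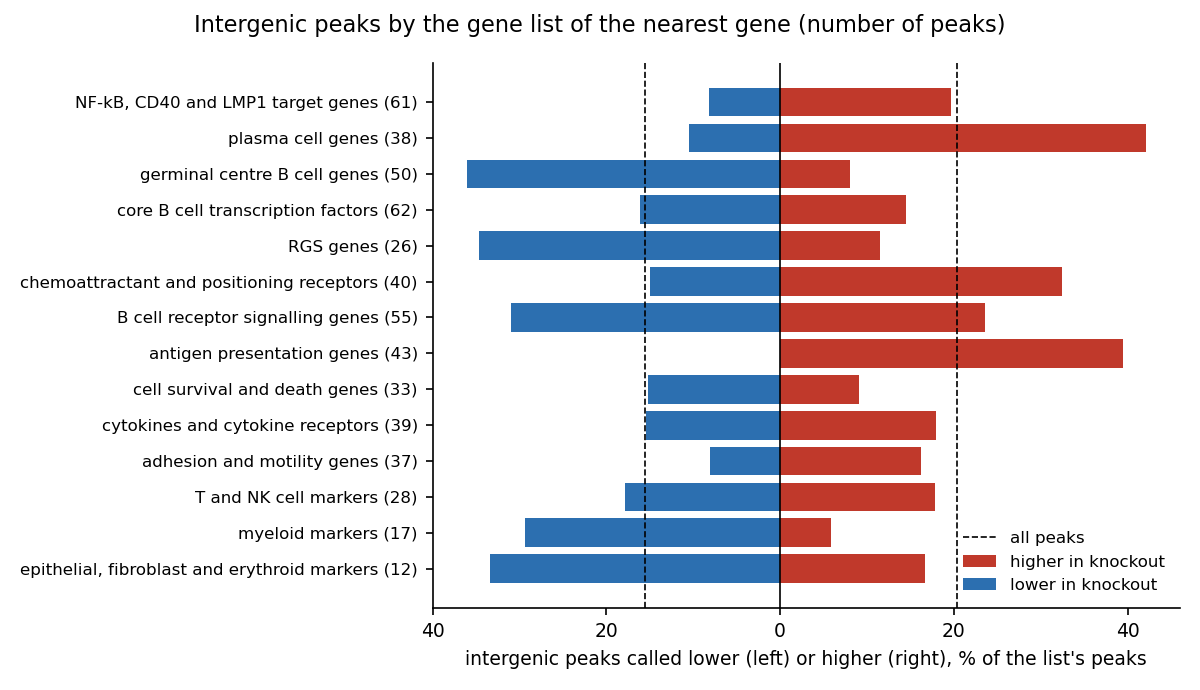
Share of each gene list's intergenic peaks called lower (left, blue) or higher (right, red) in the knockout, in percent of the peaks whose nearest gene is in the list (number in brackets). Dashed lines are the shares over all peaks, 15.5% lower and 20.4% higher. Antigen presentation genes have 17 of 43 peaks higher and none lower, and germinal centre genes 18 of 50 lower.

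The nearest genes were then looked up in the RNA table, where 19.2% of 17013 tested genes were called, 9.89% as higher and 9.28% as lower. Of the members, 10120 (63.4%) had a nearest gene in that table, and 4237 genes with at least 1 member were tested there. Genes whose called members were all higher numbered 1052, of which 26.9% rose in RNA and 7.41% fell. Genes whose called members were all lower numbered 790, of which 7.22% rose and 22.4% fell. Among the 2234 genes with no called member 12.4% rose and 11.8% fell, and the 161 genes with calls in both directions split into 14.9% and 10.6%. The share grew with the number of called members. With 1, 2 and 3 or more members, all higher, 23.4%, 36.1% and 51.7% of genes rose in RNA. With 1, 2 and 3 or more members, all lower, 19.6%, 26.2% and 43.9% fell. Genes with members under 10 kb gave 25.1% and 23.4%, and genes with no called promoter peak 22.9% and 18.1%. Across the 4237 genes, the Spearman correlation of the gene's median member with its RNA change was 0.24, a description over genes that share the same libraries.

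Part of this pattern was shared by whole stretches of chromosome. Outside the 10-Mb bins where the members' median moved by at least 0.3 log2 units, 19.8% of 827 genes with only higher members rose and 19.1% of 692 with only lower members fell, and the correlation was 0.17 over 3761 genes. With 3 or more called members the values outside those bins were 51.9% of 27 genes rising and 42.5% of 40 falling. With peaks centred on the local median the overall shares were 21.0% and 19.8%. DNA copy number was not measured, and its part in the result was not tested.

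**Figure D3:**
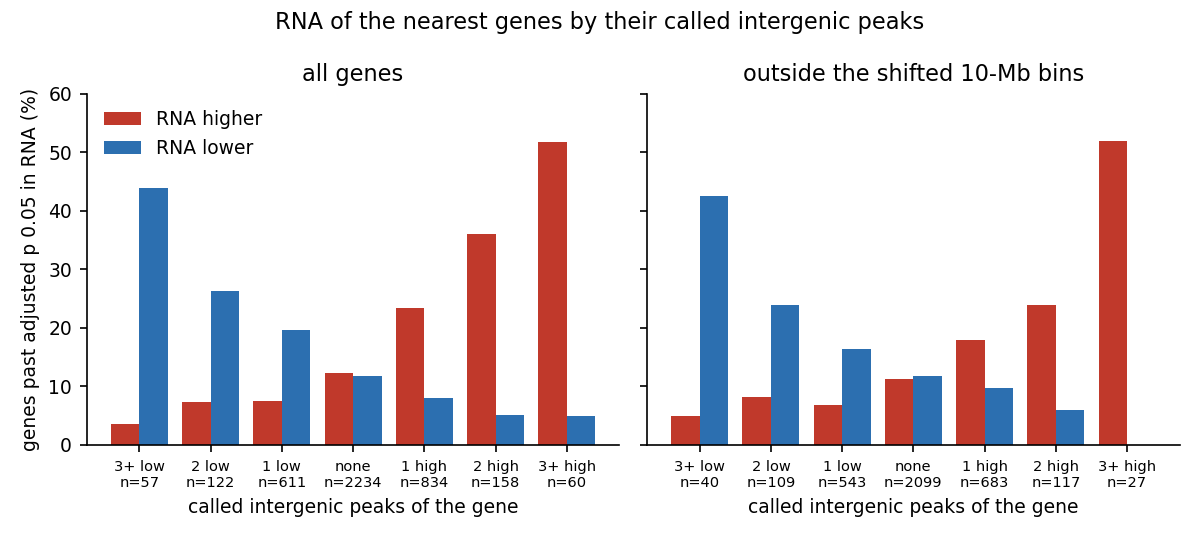
Share of genes called higher (red) or lower (blue) in RNA (y axis, percent) by the number of the gene's intergenic peaks called in 1 direction (x axis, with the number of genes), for all genes (left) and outside the shifted 10-Mb bins (right). In both panels the red bars climb to the right, to 51.7% and 51.9%, and the blue bars climb to the left, to 43.9% and 42.5%.

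The next genes were taken for the size of their RNA change among genes with a called member, so having one is no finding. Among increases, the peak in an ERV1 repeat 18.3 kb upstream of GABRA5, a GABA receptor subunit of neurons, had 14.2 in the wild type and 163 in the knockout (3.52 ± 0.36, adjusted p = 1.01e-20 in the authors' deposited table). GABRA5 RNA went from a fitted 5.68 to 454 counts. UNC13C, a synaptic vesicle protein, had an LTR peak 3.46 kb upstream at 1.79 ± 0.61, adjusted p = 0.0125 and RNA at 5.80 ± 0.42, adjusted p = 7.57e-41. SHROOM3, a regulator of cell shape, had one 5.25 kb upstream at 1.21 ± 0.38, adjusted p = 0.00662 and RNA at 5.99 ± 0.67, adjusted p = 7.90e-17. CPPED1, a phosphatase, had a peak at 2.17 ± 0.47, adjusted p = 3.78e-05, but 1.13 after local centring, where the adjusted p was 0.0548. Among decreases, the peak 1.05 kb upstream of ROR1, a receptor kinase, fell from 154 to 32.8 counts (-2.23 ± 0.29, adjusted p = 7.45e-13), with ROR1 RNA near 0 in the knockout at a fitted 0.477 against 224.3 counts. PRXL2A had a peak at -1.63 ± 0.34, adjusted p = 1.12e-05 and fitted RNA counts of 417 and 0.955. YIPF6 had a weak LTR peak at -1.51 ± 0.53, adjusted p = 0.0145 and fitted RNA counts of 267 and 0.175. CHI3L2, a chitinase-like protein, had a strong peak 11.5 kb upstream that moved by only -0.34 ± 0.062, adjusted p = 6.62e-07, beside an RNA change of -4.07 ± 0.17, adjusted p = 1.31e-123. MAST4, a kinase, had -0.43 ± 0.11, adjusted p = 9.94e-04 and RNA at -3.01 ± 0.47, adjusted p = 7.25e-09.

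Some members called intergenic in the deposited annotation lie in genes of the larger GENCODE 44 annotation. There 32.9% of members lay in a gene, 18.5% in a long noncoding RNA, and 899 covered a transcript start. The starts belonged to 967 genes, of which only 387 were tested in the RNA table, 162 of these 387 being long noncoding RNAs. Where the peak at the start was higher (78 genes) 23 rose in RNA and 4 fell, where it was lower (86 genes) 3 rose and 16 fell, and where it was not called (223 genes) 23 rose and 17 fell. Outside the shifted bins the higher peaks had 17 rising and 3 falling of 57 genes, and the lower peaks 3 and 14 of 79. ENSG00000268119 had its start in the peak near LINC00664, with -5.86 ± 0.52 for the peak and -10.10 ± 1.53, adjusted p = 2.07e-09 for the RNA in the authors' deposited tables. LINC01036 had the member with the largest increase, 9.69 ± 1.47, from a fitted 0.18 to 149 counts, a size that is no bound since 1 side is near 0, and RNA at 7.45 ± 1.87, adjusted p = 8.29e-04. UGT2B17, a glucuronosyltransferase, had 1.54 ± 0.28 and 3.72 ± 0.46, adjusted p = 5.56e-14. HLA-DQB1, a class II chain, had 0.60 ± 0.12 and 1.62 ± 0.25, adjusted p = 4.84e-09. The peak at a start of TSPAN3, a tetraspanin, rose by 4.82 ± 0.74 with RNA at 0.90 ± 0.19, adjusted p = 2.62e-05. The peak at a start of GPAM, which begins triglyceride synthesis, fell (-2.23 ± 0.20), with RNA at -0.81 ± 0.19, adjusted p = 3.05e-04. Opposite directions were seen at HIVEP2, a zinc finger protein, with a peak at 0.39 ± 0.067 and RNA at -0.75 ± 0.16, adjusted p = 8.47e-05. PRKD2, a kinase, likewise had 0.26 ± 0.068 and -0.87 ± 0.21, adjusted p = 3.76e-04. These genes were picked from the table of starts after their values were seen.

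The calls were not spread evenly over chromosomes. Chromosome 16 had 58.4% of its 599 members called, chromosome 8 52.5% of 648 and chromosome 6 44.4% of 1121, with 424 higher and 74 lower on chromosome 6. The lowest autosome was 19, with 27.9%. After centring on peaks within 2 Mb the same shares were 34.1%, 34.0% and 32.7% on chromosomes 16, 8 and 6. Over all 15974 members this centring left 4932 called, against 5572 as deposited. In the first 10 Mb of chromosome 16, 77 of 88 members were higher and none lower, and from 60 to 70 Mb 32 of 50 were lower and 2 higher. In the first 10 Mb of chromosome 9, 31 of 46 were lower and none higher. In all, 41 bins of 10 Mb had a member median at least 0.3 log2 units from 0, 25 upward and 16 downward. They held 2046 members, of which 55.8% were called, against 31.8% of the 13928 outside them. These bins were picked by the members' own values, so the contrast is a description.

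**Figure D4:**
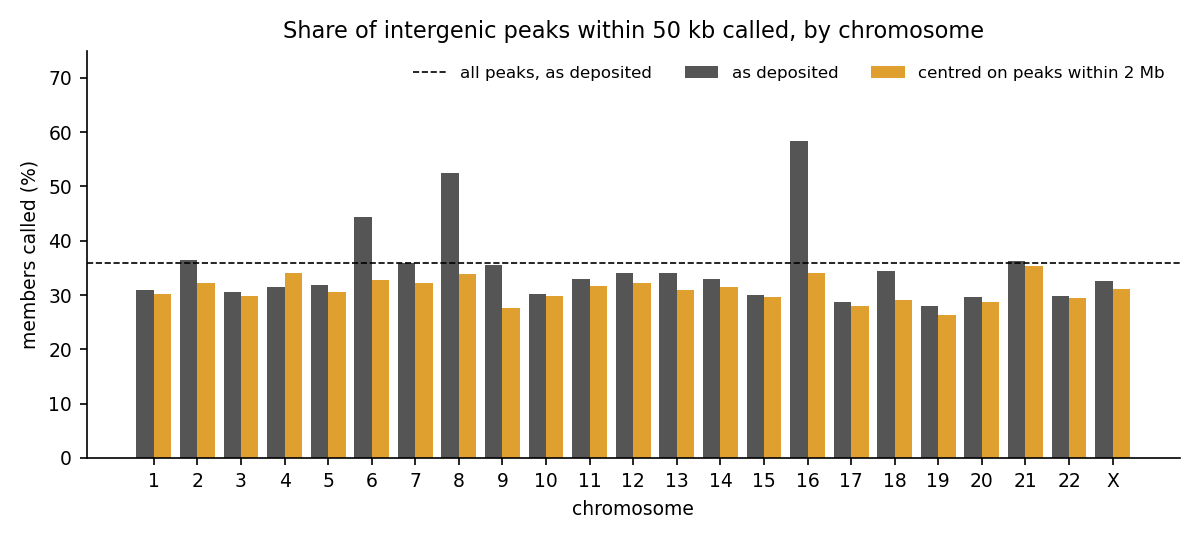
Share of the members called on each chromosome (y axis, percent), as deposited (grey) and after centring each peak on the median of peaks within 2 Mb (yellow). The dashed line is the 35.9% of all peaks as deposited, so it is no baseline for the yellow bars. After the centring 4932 of all 15974 members were called. Chromosomes 6, 8 and 16 stand at 44.4%, 52.5% and 58.4% as deposited and between 32.7% and 34.1% after centring.

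Neighbouring members tended to move the same way. Of 795 adjacent pairs under 10 kb apart with both called, 84.0% had the same direction, falling to 79.7% of 651 pairs at 10 to 50 kb and 71.4% of 412 at 50 to 200 kb. After local centring these shares were 78.9%, 71.3% and 58.9%. As 60.3% of called members were higher, unrelated pairs would also share a direction in part, and their share was not computed. Among the genes with 7 or more called members was GRHPR, a metabolic enzyme gene on chromosome 9, with 7 higher members of 10 and none lower. Its member with the smallest adjusted p, 13.3 kb upstream, had 3209.6 in the wild type and 4369 in the knockout (0.44 ± 0.044, adjusted p = 1.42e-22), and the one with the largest change, 44.3 kb upstream, had 126 in the wild type and 396 in the knockout (1.65 ± 0.17, adjusted p = 1.70e-20). GRHPR RNA rose by 0.73 ± 0.16, adjusted p = 8.56e-05 in the authors' deposited table. LINC02528 on chromosome 6 had 7 higher members and 1 lower of 13, with a median of 0.88, or 0.30 after local centring. LOC101927851 on chromosome 1 had 5 higher and 4 lower of 12, so members within 100 kb of each other moved in both directions there. C16orf72 had 7 higher of 9 and none lower, with a median of 1.07 that became 0.12 after local centring, and its RNA rose by 1.18 ± 0.19, adjusted p = 1.11e-08. PLCG2 had a median of -0.72, or -0.13 after local centring. FURIN and RNF144B had 7 called members too, like GRHPR, C16orf72 and PLCG2, but fewer members in all. FURIN, a protein-cleaving enzyme, had 6 higher and 1 lower of 7, with a median of 0.84. All 7 members of RNF144B, a ubiquitin ligase, were lower, with a median of -0.90, or -1.07 after local centring. One gene with more called members than these is not described here, so the genes given are no summary of direction.

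The share of members called, and its direction, differed with the repeat they lay in. The deposited annotation placed 9544 members in no repeat or CpG island, of which 33.2% were called. Of 2050 members in long terminal repeats (LTRs) 39.4% were called, 555 higher and 253 lower, and of 684 in the ERV1 family 46.2%, 224 higher and 92 lower. Alu elements held 973 members, 245 higher and 119 lower. In CpG islands the split was the other way, with 93 higher and 110 lower of 546. Island members were also stronger, with a median mean count of 351 against 80.7 in LTRs. Among all members, 66.1% of calls were higher below a mean of 50 and 46.1% at 500 or more. The part of peak strength in these splits was not tested. Among repeat names with at least 20 members, THE1B had 11 higher and 1 lower of 24, and MER51A 10 and 2 of 20. LTR33 had none higher and 7 lower of 21, and L1MB7 2 higher and 11 lower of 29. These names were picked for their values, from both ends of the order by median log2 fold change. Among the names with the most members, MIRb had 40 higher and 35 lower of 213, AluJb 57 and 17 of 203 and L2a 38 and 35 of 191. Reads in repeats can map to several copies, and how such reads were counted is not given in the sources used here.

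Base composition also differed with direction. The central 200 bases had a median GC of 48.5% in higher, 47.0% in lower and 48.5% in uncalled members, beside 45.5% in remote intergenic and 66.0% in promoter peaks. Below 35% GC, 91 members were higher and 136 lower of 640. From 55 to 60% GC, 401 were higher and 206 lower of 1847. At 60% GC and above, 378 were higher and 267 lower of 1901. The higher share of calls was thus 40.1% below 35% GC, 66.1% from 55 to 60% and 58.6% above, with no steady rise.

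Motif matches in the same windows, as spelled out with the sequences, differed in share between higher and lower members. AP-1 letters were in 10.6% of higher, 7.87% of lower and 7.54% of uncalled members, against 7.35% of all peaks. The ARHGAP25 window of a higher member, printed above, holds one, as does the EZH2 window of a lower member. E2A E-boxes were in 18.6%, 14.9% and 14.6% (14.5% of all peaks), and NF-kB letters in 6.54%, 5.02% and 5.13% (5.22% of all peaks). PU.1 letters leaned the other way, in 3.39% of higher, 6.06% of lower and 3.71% of uncalled members, against 3.95% of all peaks. Of the 634 members with a PU.1 match 114 were higher and 134 lower, while members without one were higher in 3248 and lower in 2076 cases. The ETS-IRF composite was in 6.63% of higher and 8.33% of lower members (7.20% of uncalled), and the interferon response letters, the other way, in 8.74% and 7.29% (7.35% of uncalled). Octamer letters were in 4.07% and 4.89%, above the 3.07% of uncalled members, and RUNX letters in 8.80% and 7.92%, above 6.72%. CTCF core letters were in 18.7% of higher and 19.2% of lower members, against 24.9% of uncalled ones and 22.8% of all peaks. Members with a CTCF core match were called in 28.9% of cases and those without in 36.7%. Over whole peaks the CTCF core shares were close to each other, at 51.7% of higher, 51.0% of lower and 52.1% of uncalled members. Uncalled members were shorter, with a median width of 678 bp against 784 for higher and 788 for lower ones. The whole-peak shares therefore compare unequal lengths, unlike those of the central window. EBF letters, the MYC E-box and the GC box were in nearly equal shares of the 3 groups, the last in 8.30%, 8.55% and 8.24% against 13.9% of all peaks. Within windows of 45 to 55% GC the PU.1 difference between higher and lower members was -2.62 percentage points and the AP-1 difference 1.85, beside -2.67 and 2.72 over all windows. The NF-kB difference was 0.79 there, beside 1.52 over all windows, the ETS-IRF difference -1.13 beside -1.69 and the E2A difference 2.77 beside 3.66. The octamer and RUNX differences, -0.81 and 0.89 over all windows, were -0.13 and 0.32 there. Over whole peaks, which hold more bases and more matches, the differences were 4.78 points for AP-1, 2.29 for NF-kB, 6.33 for E2A, -4.14 for PU.1, -4.10 for ETS-IRF, -2.87 for octamer and 2.51 for RUNX, each in the same direction as in the central window.

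**Figure D5:**
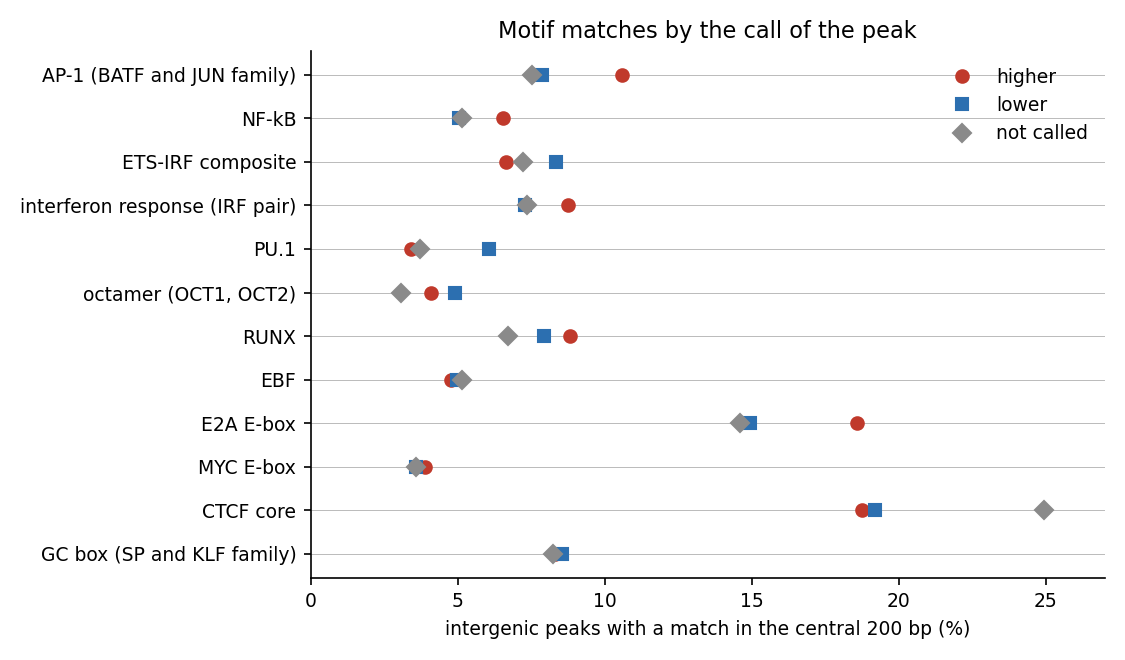
Share of higher, lower and uncalled members with a match to each motif in the central 200 bp (x axis, percent). AP-1 and E2A E-box matches are most frequent in higher members (10.6% and 18.6%), PU.1 matches in lower members (6.06%) and CTCF core matches in uncalled members (24.9%). Over whole peaks the CTCF core shares are 51.7% of higher, 51.0% of lower and 52.1% of uncalled members, whose median widths are 784, 788 and 678 bp.

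The RNA of genes encoding proteins that bind such motifs is given beside these shares, with no test linking them. These genes were chosen after the motif values were seen. In the authors' deposited table, SPI1, which encodes PU.1, fell (-1.32 ± 0.25, adjusted p = 3.81e-06), and its relative SPIB stood at 0.38 ± 0.17, adjusted p = 0.101. POU2F2, which encodes OCT2, fell (-0.91 ± 0.17, adjusted p = 4.54e-06), and POU2F1, which encodes OCT1, stood at 0.077 ± 0.16, adjusted p = 0.821. IRF4 rose (3.65 ± 0.16, adjusted p = 1.25e-112) and IRF8 fell (-0.84 ± 0.15, adjusted p = 5.28e-07). Of the AP-1 family, BATF stood at 1.17 ± 0.54, adjusted p = 0.118, JUNB at -0.0095 ± 0.23, adjusted p = 0.990 and FOSL2 fell (-1.66 ± 0.49, adjusted p = 0.00594). TCF3 stood at -0.32 ± 0.16, adjusted p = 0.165 and NFKB2 at 0.47 ± 0.19, adjusted p = 0.0647. The other NF-kB genes NFKB1, REL, RELA and RELB lay between 0.072 and 0.50, with adjusted p from 0.113 to 0.850. CTCF RNA fell by a smaller amount (-0.51 ± 0.15, adjusted p = 0.00611).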

How the data were processed

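RNA-seq and ATAC-seq of wild-type and RGS-SE knockout Raji cells were used, 2 libraries per genotype and assay. The submitters' processing notes name Trim Galore, Trimmomatic, cutadapt, STAR, featureCounts, Bowtie2, HOMER and DESeq2 with GRCh38 or hg38. Which program called the peaks, and all versions and settings, are missing from the sources used here. The authors deposited 1 row of DESeq2 output per gene or peak, per the file headers: a signal (the mean size-factor-normalised count over 4 libraries), a log2 fold change with its SE on the log2 scale, a Wald score, a p-value and an adjusted p-value. The deposited ATAC table also gives each peak's annotation and its distance to the nearest TSS in bp. Benjamini-Hochberg adjustment of the deposited p-values gave the deposited adjusted values back, to within 1.42e-15. Depth per library is unknown.

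From these values fitted counts per genotype, counts of calls and shares were computed with Python 3.11.15, pandas 2.3.3, numpy 2.4.6 and scipy 1.17.1. The authors' test was kept as the main test. Alternatives tested against a 1.5-fold change, raised the mean count to 50 or 100, centred fold changes on all peaks, the chromosome or peaks within 2 Mb (at least 10 peaks), divided Wald statistics by their robust SD, or set the limit at 25 or 10 kb. Scripts were tested on simulated data. Nearest genes were joined to the RNA table by Ensembl identifier (9706 members) or by symbol alone (414). GENCODE 44 starts and hg38 sequence came from the reference. All 70312 peaks lay within the reference's chromosomes. Motifs were searched on both strands. The members, the 14 gene lists and the motifs were chosen with earlier results of these data known.

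Named items were the members of the targeted interval, the 8 largest increases and 8 largest decreases among called members at or above the members' median mean, and per list up to 3 called members with the smallest adjusted p, 1 per gene. Added to these were the genes with the most called members, the 5 largest RNA increases and decreases (RNA mean at least 100) beside a called member, and the peaks at the 50 kb limit. A few of these are not reported here.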

Additional observations from a re-analysis of the deposited data

How the results depend on the processing

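The count of called members (5572, with 3362 higher and 2210 lower) stayed within 1.5 times under an adjusted p under 0.01, a mean of at least 50, each centring, a 25 kb limit, and without chromosome X, chromosome 1 or the shifted 10-Mb bins. It was 1376 (1002 higher, 374 lower) against a 1.5-fold change, 486 (350 and 136) with scaled Wald statistics, 2704 (1828 and 876) at 1 log2 unit or more, 3273 (1866 and 1407) at a mean of at least 100 adjusted again, and 1782 (1062 and 720) under 10 kb. The share of calls that were higher, 60.3%, was 72.8%, 72.0%, 57.0% and 58.3% against a 1.5-fold change, with scaled statistics, at a mean of at least 100 and outside the shifted bins. At a mean of at least 100 the called share was 37.2% under 5 kb, 44.3% at 40 to 50 kb, 40.8% for all members and 47.9% for remote intergenic peaks.

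Of genes with only higher members 26.9% rose in RNA. The share was 30.8% for members changed by 1 log2 unit, 9.22% with RNA tested against a 1.5-fold change, 21.0% with local centring, 19.8% outside the shifted bins and 22.9% with no called promoter peak. Of genes with only lower members 22.4% fell, or 6.46% against a 1.5-fold change, 19.1% outside the shifted bins and 18.1% with no called promoter peak. The PU.1 difference between higher and lower members was -4.14 percentage points in whole peaks. Local centring moved the called share to 34.1%, 34.0% and 32.7% on chromosomes 16, 8 and 6. Where a setting moved a value and its own construction does not show why, the cause was not tested.

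Of the 123 named peaks, local centring turned 6: the peaks of BLK (-0.16) and CIITA (-0.11), those of C16orf72 at 43.4 kb downstream (-0.36) and 12.5 kb upstream (-0.35), and 2 on chromosome 8 (0.0059 and 0.10). It ended the call of a further 23. Scaled statistics ended 84 calls and the 1.5-fold test 60, with no change of direction. The alternatives without the 10-Mb bins, with windows of 45 to 55% GC and without called promoter peaks were chosen after seeing the data. So was the comparison with RNA in which the peaks, and not the RNA, were centred locally. No paired analysis was possible because the tables hold no values of single libraries. For the same reason TMM scaling, edgeR, leaving out each replicate and the replicate block were not run.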
